A study of Homo sapiens with 24 samples.

Results

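The libraries described here are the untreated parental PPC1 libraries numbered 4 and 5 (UT_4 and UT_5) and the LCL521-treated parental libraries of the same numbers (UT_LCL_4 and UT_LCL_5). They are 4 of the 12 parental libraries and of the 24 libraries of the series, and were set against the 8 parental libraries numbered 1, 2, 3 and 6. PPC1 is a human prostate cancer cell line. All 12 parental cultures were unirradiated and grew in RPMI medium on 100 mm plates to a harvest on day 5, and 6 of them received LCL521, a pro-drug inhibitor of acid ceramidase (ASAH1), at 5 μM for 5 hours. RNA was isolated in 6 sets. The other 12 libraries of the series come from polyploid giant cancer cells (PGCC), made from the same line with 8 Gy of radiation on day 2 and enriched on a 20 micron filter. Of these 12, 6 also received LCL521 at 5 μM for 5 hours. Libraries with the same number are treated as 1 culture set, so 2 sets stand against 4. The labels give no date, passage, density or medium batch that would set sets 4 and 5 apart. The sets were chosen from their measured RNA levels, so every difference between them and the other sets is given as a description, without a test.

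The gene groups below belong to well-known programs of cultured cells. Shortage of amino acids, among other stresses, activates kinases that favor translation of ATF4, a transcription factor that induces amino acid transporters, synthesis enzymes, tRNA synthetases and feedback genes such as CHAC1, SESN2, TRIB3 and DDIT3. Progress from G1 into S phase depends on E2F factors that drive cyclin E and the replication machinery, whereas mitotic genes are expressed later, in G2 and M. Heat shock factor 1 drives cytosolic chaperones, and the metal-responsive factor MTF1 drives metallothioneins, which bind zinc and copper.

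The promoters of 5 genes on which the description turns are printed first, as examples of genes apart between the sets whose promoters hold a motif of the factor known for their group, and they were picked for holding one. They are RefSeq sequences of GRCh38.p14, from 250 bases before to 50 bases after the gene start, written 5′ to 3′ on the strand of the gene. Capitals mark the letters searched on both strands: TGATGNAA for CHAC1 and ASNS (the element that ATF4 binds with a C/EBP partner), GAA, NN, TTC, NN and GAA in a row for HSPA8 (heat shock element), TGCACNC or TGCGCNC for MT2A (metal response element, where matches may overlap) and TTTNGCGC for E2F1 (E2F site).
CHAC1 (chr15:40953221-40953520, plus strand): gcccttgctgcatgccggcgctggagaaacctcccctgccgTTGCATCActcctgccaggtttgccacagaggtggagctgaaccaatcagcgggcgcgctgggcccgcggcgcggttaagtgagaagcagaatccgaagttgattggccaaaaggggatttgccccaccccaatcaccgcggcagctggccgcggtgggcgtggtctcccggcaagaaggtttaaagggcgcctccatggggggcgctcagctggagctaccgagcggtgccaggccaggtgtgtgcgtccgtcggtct
ASNS (chr7:97872359-97872658, minus strand): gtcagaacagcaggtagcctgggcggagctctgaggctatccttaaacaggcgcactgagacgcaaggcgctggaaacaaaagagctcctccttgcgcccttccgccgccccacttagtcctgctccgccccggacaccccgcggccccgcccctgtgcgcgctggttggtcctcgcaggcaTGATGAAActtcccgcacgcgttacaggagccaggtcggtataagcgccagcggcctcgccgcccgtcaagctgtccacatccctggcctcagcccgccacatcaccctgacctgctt
HSPA8 (chr11:123062087-123062386, minus strand): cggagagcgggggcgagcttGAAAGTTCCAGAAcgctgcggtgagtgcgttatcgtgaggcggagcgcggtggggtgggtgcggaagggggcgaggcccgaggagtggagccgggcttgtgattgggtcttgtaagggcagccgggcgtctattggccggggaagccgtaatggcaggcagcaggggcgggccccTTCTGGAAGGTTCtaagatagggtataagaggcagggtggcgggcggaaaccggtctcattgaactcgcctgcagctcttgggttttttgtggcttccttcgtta
MT2A (chr16:56608334-56608633, plus strand): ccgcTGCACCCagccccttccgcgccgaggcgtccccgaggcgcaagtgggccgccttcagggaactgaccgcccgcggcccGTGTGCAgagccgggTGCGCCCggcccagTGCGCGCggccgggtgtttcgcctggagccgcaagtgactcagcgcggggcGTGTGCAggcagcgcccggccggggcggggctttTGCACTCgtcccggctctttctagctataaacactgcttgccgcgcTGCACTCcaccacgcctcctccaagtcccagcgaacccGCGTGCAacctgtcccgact
E2F1 (chr20:33686336-33686635, minus strand): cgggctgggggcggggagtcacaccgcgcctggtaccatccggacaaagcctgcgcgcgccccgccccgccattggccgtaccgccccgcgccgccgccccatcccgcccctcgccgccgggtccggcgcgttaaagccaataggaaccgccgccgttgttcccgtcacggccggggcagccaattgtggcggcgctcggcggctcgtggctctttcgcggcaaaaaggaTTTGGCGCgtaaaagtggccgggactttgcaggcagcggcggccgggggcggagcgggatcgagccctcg

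CHAC1 and ASNS hold 1 match each, HSPA8 holds 2, MT2A holds 8 and E2F1 holds 1. The windows of SESN2 and TRIB3 hold no TGATGNAA, that of HSPA1A no heat shock element and that of GINS2 no TTTNGCGC, although these genes were apart as well. Among the 27305 promoters of this length, 3.67% hold TGATGNAA, 0.49% hold the heat shock element, 29.35% hold TGCACNC or TGCGCNC and 1.83% hold TTTNGCGC. The first was found in 5 of the 29 amino acid response genes with a promoter sequence (17.2%) and in 6 of 13 tRNA synthetase genes (46.2%). The heat shock element was found in 3 of 19 heat shock genes (15.8%), the metal response element in 3 of 3 metallothionein group genes, and the E2F site in 15 of 39 genes of DNA replication and G1/S (38.5%). TTTGAA, the core of the cell cycle homology region of late cell cycle genes, was found in 26 of 37 mitotic genes (70.3%) and in 15.43% of all promoters. Genes with a match included some that did not follow their group. MCM7 (E2F site), CDC20 and MAD2L1 (both TTTGAA) overlapped between the sets, and CCNF (TTTGAA) was lower in sets 4 and 5. These matches describe the letters of the windows and not binding. List members were counted whatever their direction, and the lists were drawn up for these programs. The shares therefore describe the lists and not sets 4 and 5.

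The parental libraries held between 14835246 and 19906601 counts, and sets 4 and 5 lay inside that range, at 17013593 to 18111908. The libraries of sets 4 and 5 had a larger share of counts on mitochondrially encoded genes, at 4.10% to 4.33% against 0.954% to 3.31% in the others, and a larger share on their 10 most counted genes, at 6.24% to 6.54% against 4.92% to 5.86%. Genes with at least 10 counts numbered 13302 to 13618 in sets 4 and 5 and 13001 to 13738 in the others. A level of 3 counts, taken as the floor of detection, corresponded to 0.151 to 0.202 CPM (counts relative to library size, scaled by edgeR's TMM method) and covers counting error only. The 7 markers of the luminal prostate summed to 0.168 to 0.626 CPM in sets 4 and 5 and 0.116 to 0.391 CPM in the others. Of these, 6, among them KLK2, KLK3, TMPRSS2 and FOLH1, had 3 or fewer counts in every parental library, and ACPP had 1 to 10. The summed level of 5 epithelial markers was 757 to 1037 CPM in sets 4 and 5 and 771 to 994 CPM in the others. KRT19 made up most of this sum and overlapped, as did KRT8 and CDH1. KRT18 was lower in all 4 libraries, at 178 to 202 against 209 to 263 CPM. EPCAM was higher in all 4 but near the floor, at 0.284 to 0.715 against 0 to 0.232 CPM. The 4 basal markers summed to 67.3 to 88.8 against 23.9 to 48.2 CPM, with KRT15 and TP63 higher in all 4 libraries and KRT5 and KRT14 at 2 or fewer counts. The 6 fibroblast markers summed to 6.88 to 10.1 against 10.2 to 16.5 CPM, the 3 endothelial markers in the table to 3.15 to 4.72 against 0.682 to 2.64 CPM, and the 6 immune markers to 1.97 to 2.90 against 0.398 to 1.39 CPM, where CD3E, LYZ and ITGAM had no counts and PTPRC made up most of the sum. The 5 neuroendocrine markers overlapped, at 13.5 to 28.2 against 12.3 to 27.6 CPM. The part of these shifts in the results below was not tested.

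Sets 4 and 5 formed a group of their own among the parental libraries. The first principal component of log2 CPM held 52.1% of the variance and placed them at 50.2 to 52.8, while the other 8 libraries lay between -30.6 and -20.5. The second component held 15.9% and spread the sets within each group, with set 6 at -31.7 and -39.9, set 1 at 27.3 and 24.5, set 4 at -13.5 and -12.7 and set 5 at 13.7 and 11.8. Pairs of libraries of the same treatment differed by a chi-square per degree of freedom of 9.77 to 36.0 within a group of sets (14 pairs) and 59.1 to 110 across the groups (16 pairs), where counting noise alone would give 1. No libraries were therefore counted as duplicates.

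**Figure D1:**
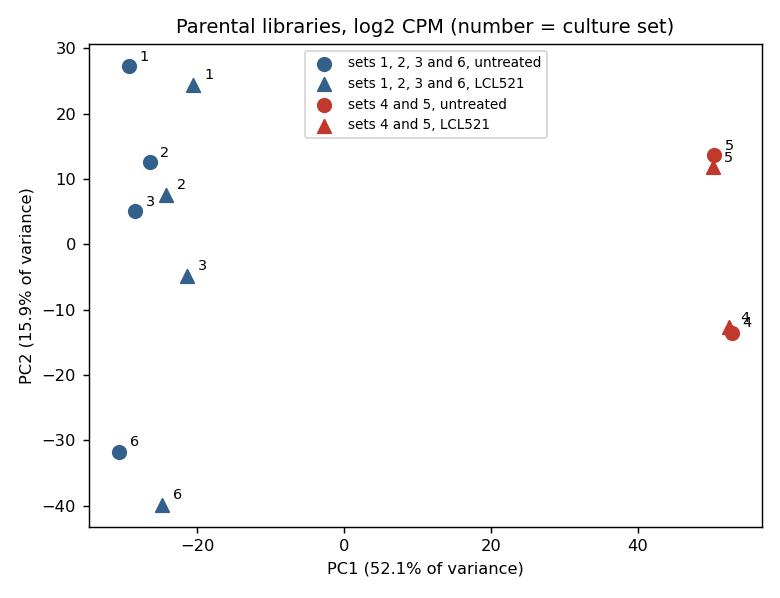
First and second principal component of log2 CPM for the 12 parental libraries, each labelled with its culture set; circles are untreated and triangles LCL521-treated. The 4 libraries of sets 4 and 5 lie at 50.2 or above on the first component and the other 8 at -20.5 or below.

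A gene is called apart here where all 4 libraries of sets 4 and 5 lay above, or all below, the other 8. Of 14295 genes tested, 5021 were apart (35.1%), 2547 higher (17.8%) and 2474 lower (17.3%) in sets 4 and 5. The choice of the sets fixed much of this count, and it serves only as the background for each gene group. Over all genes the median log2 fold change was -0.01, its median size was 0.34 and 5% of genes exceeded 1.43. Among the genes apart, 749 were over 2-fold higher and 534 over 2-fold lower. In bulk RNA, fewer cells of a type and less RNA per cell cannot be told apart.

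Genes of the amino acid response were the group with the highest median. Of 36 genes, 32 were apart and higher in sets 4 and 5 and 2 apart and lower, with a median log2 fold change of 1.49 (set 4 alone 1.49, set 5 alone 1.49, SD between the other 4 sets 0.13). CHAC1 (ENSG00000128965, chromosome 15 from 41245160 to 41248710 in hg19), which degrades glutathione, was at 97.2 CPM in UT_4, 107 in UT_5, 84.2 in UT_LCL_4 and 80.3 in UT_LCL_5, and at 1.45 to 4.67 (median 2.67) in the other libraries. Its log2 fold change was 4.99, ahead of every other gene whose mean over the 12 libraries reached 16 CPM. SESN2 (ENSG00000130766, chromosome 1 from 28586038 to 28609002), a leucine sensor that restrains mTORC1, was at 147, 150, 120 and 116 CPM in the same order, against 3.24 to 6.88 (median 5.26). For both genes the 4 libraries lay close together and far above the others. GDF15, a secreted stress cytokine, was at 1715, 1402, 1883 and 1593 CPM against 99.0 to 205 (median 130.5).

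The transcription factors of this response were higher too. ATF4 itself was at 624 CPM in UT_4, 765 in UT_5, 639 in UT_LCL_4 and 720 in UT_LCL_5, against 153 to 222 (median 188) in the others, a log2 fold change of 1.87. DDIT3 (CHOP) had a log2 fold change of 2.30, CEBPB of 1.63, JDP2 of 2.77 and NUPR1 of 3.29, and TRIB3, a pseudokinase that restrains ATF4 signaling, of 2.09. ATF5 was apart in the opposite direction, at 74.1, 82.9, 70.5 and 77.9 CPM against 130 to 185 (median 168). The amino acid transporters SLC7A11 (cystine), SLC1A4, SLC38A2, SLC7A1 and SLC7A5 had log2 fold changes of 1.98, 2.42, 1.56, 1.44 and 0.90. SLC7A11 was at 342, 352, 336 and 352 CPM against 63.5 to 110 (median 83.9), so that the 4 libraries hardly differed among themselves. Enzymes followed with 2.46 for CTH (cysteine synthesis), 1.53 for MTHFD2 (mitochondrial folate), 0.86 for ASNS (asparagine synthesis), 0.83 for PSAT1 and 0.69 for PHGDH (serine synthesis). ALDH18A1, of proline synthesis, was apart and lower at -0.37, and VLDLR (0.21) and ALDH1L2 (0.42) overlapped. FGF21, a secreted hormone, had 4.83, 3.75, 3.03 and 2.21 CPM in the 4 libraries and no counts in any of the others. DDIT4, an mTORC1 inhibitor, had a log2 fold change of 2.57.

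Of the 20 cytosolic tRNA synthetases, which charge tRNAs with amino acids, 14 were apart and higher and 3 apart and lower, with a median of 0.65. CARS (cysteine) was at 162, 171, 153 and 156 CPM against 39.9 to 68.4 (median 50.7), a log2 fold change of 1.61. GARS (1.32) and AARS (1.18) followed. RARS (-0.71), FARSA (-0.37) and HARS (-0.31) were lower in all 4 libraries. Genes of the endoplasmic reticulum stress response were divided, with 8 apart and higher and 6 apart and lower of 27 (median 0.15). ERN1, which encodes the stress sensor IRE1, had a log2 fold change of 2.38, DNAJB9 of 1.61, HERPUD1 of 1.51 and XBP1 of 1.01. The chaperones CRELD2 (-0.76), SDF2L1 (-0.74), CALR (-0.49) and PDIA6 (-0.23) were lower, and HSPA5 (0.56) overlapped between the groups.

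**Figure D2:**
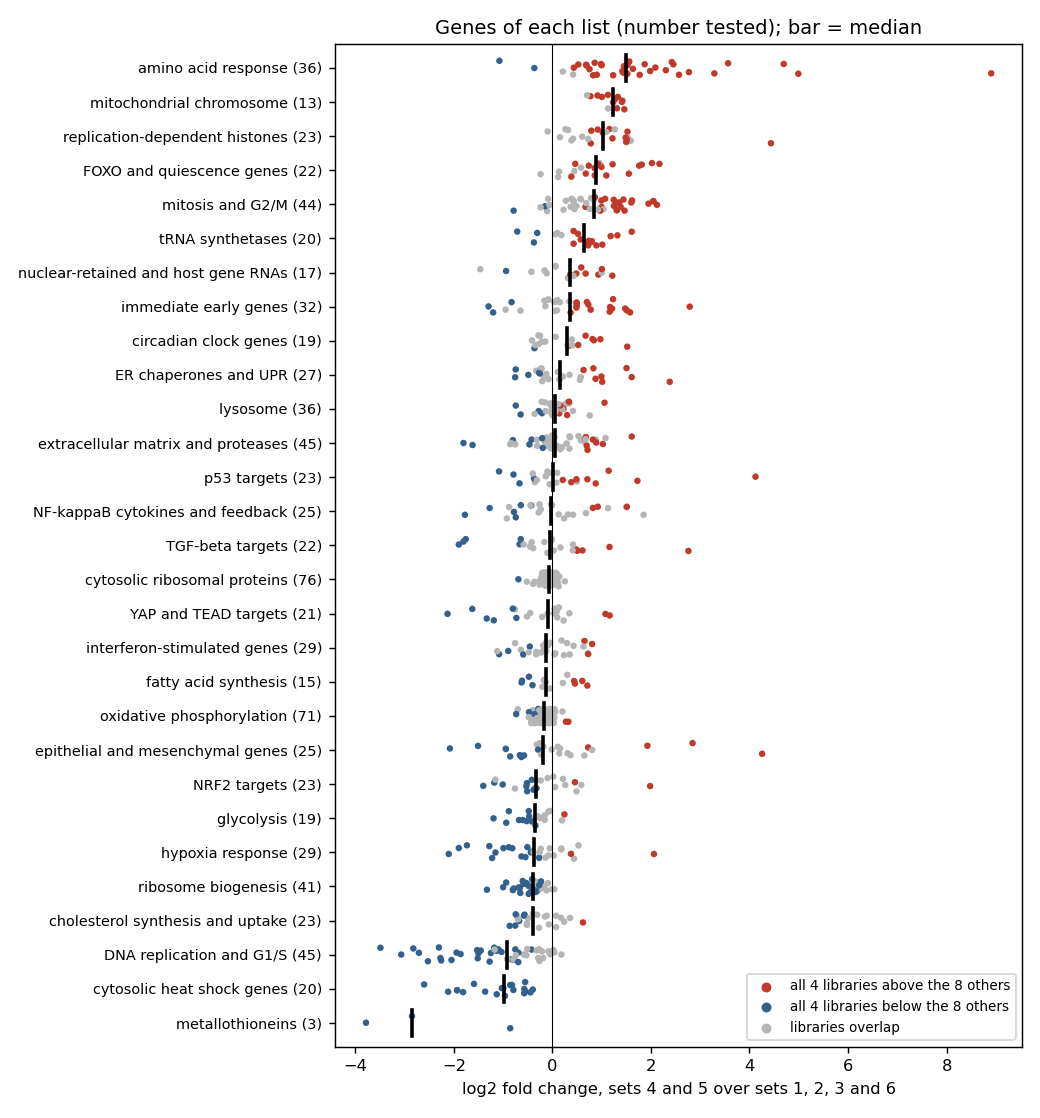
Log2 fold change of sets 4 and 5 over sets 1, 2, 3 and 6 for the tested genes of 29 lists, with the number tested in brackets; bars are list medians and colors show whether the 4 libraries lay above, below or among the other 8. Medians run from 1.49 (amino acid response) to -2.85 (metallothioneins); the point farthest right is FGF21, which had no counts in the other 8 libraries, so its fitted value depends on the prior count.

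Genes of DNA replication and the G1/S transition were lower. Of 45 genes, 27 were apart and lower and none apart and higher, with a median log2 fold change of -0.92 (set 4 alone -1.0, set 5 alone -0.77, SD between the other sets 0.24). CCNE2 (ENSG00000175305, chromosome 8 from 95891998 to 95908906), a cyclin E, was at 1.46 CPM in UT_4, 1.65 in UT_5, 1.68 in UT_LCL_4 and 2.20 in UT_LCL_5, against 12.5 to 26.1 (median 20.1). GINS2, a subunit of the replicative helicase, was at 2.81, 5.97, 3.31 and 6.55 CPM against 13.9 to 41.6 (median 35.5). E2F1 was at 4.61, 7.85, 3.75 and 8.34 CPM against 16 to 37.4 (median 31.1). Set 4 was the lower of the pair for both genes, and no library of either set reached the lowest of the others. The licensing factors ORC1, CDT1 and CDC6 had log2 fold changes of -3.07, -2.27 and -1.86, and PCNA, the sliding clamp, of -2.05. Within the MCM helicase, MCM5 (-1.51), MCM4 (-1.50), MCM3 (-1.09), MCM2 (-0.69) and MCM6 (-0.42) were apart and lower, and MCM7 (0.18) overlapped. RRM2, TYMS and TK1, which supply nucleotides, overlapped, at -1.17, -0.92 and -0.29. Outside the list, CDC25A, the phosphatase that activates CDK2, was at -2.40 and ZNF367 at -3.30.

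Mitotic genes moved the other way. Of 44 genes, 21 were apart and higher and 2 apart and lower, with a median of 0.85 (set 4 alone 0.61, set 5 alone 1.13, SD between the other sets 0.23). HMMR, a spindle protein, was at 31.3, 38, 28.3 and 35.2 CPM against 4.15 to 13.4 (median 7.84), a log2 fold change of 2.05. CENPE, a kinetochore motor, was at 26.1, 31.3, 22 and 29.6 CPM against 4.62 to 11.0 (median 5.87). Set 5 was the higher of the pair for both. NDC80 (1.95), CENPF (1.62), TOP2A (1.44) and the proliferation marker MKI67 (1.31) were also apart and higher. Cyclin genes were divided: CCNB1 (0.49) and CCNB2 (1.04) had positive fold changes but overlapped, CCNA2 (-0.24) overlapped and CCNF (-0.79) was apart and lower. CDC20 (-0.09) and MAD2L1 (-0.06) overlapped. Replication-dependent histone genes, of which 23 of 62 were tested, had a median of 1.02 with 11 apart and higher and none apart and lower. Their transcripts mostly lack poly(A) tails and reads of near-identical copies may be split, so these values are uncertain. A gene could also pass the filter on low counts through libraries of sets 4 and 5 alone. How many histone genes did so was not counted, so the median and the counts may partly reflect the filter. CDKN2B, which encodes the CDK4/6 inhibitor p15, was at 210, 181, 223 and 178 CPM against 21.7 to 39.9 (median 29.6), and CDKN1B (p27) had a log2 fold change of 0.68.

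**Figure D3:**
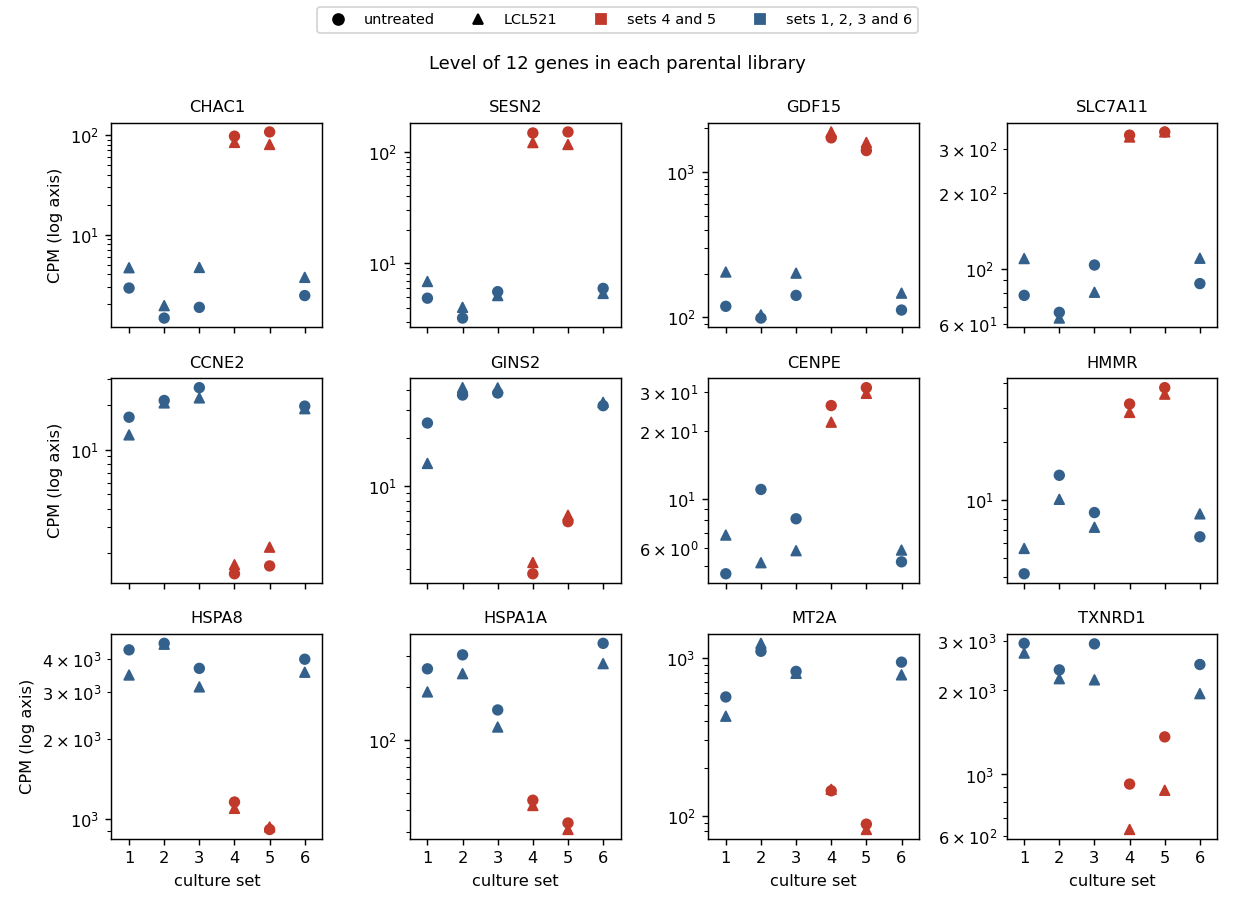
Level of 12 genes (CPM, log axis) in each parental library by culture set; circles are untreated, triangles LCL521-treated, red points sets 4 and 5. For each of these genes all red points lie on one side of all blue points, as for CHAC1 at 80.3 to 107 against 1.45 to 4.67 CPM.

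Every one of the 20 genes in the heat shock list was apart and lower, with a median log2 fold change of -0.98 (both sets -0.93, SD between the other sets 0.17). HSPA8 (ENSG00000109971, chromosome 11 from 122928197 to 122933938), the constitutive Hsp70, was at 1156 CPM in UT_4, 911 in UT_5, 1094 in UT_LCL_4 and 931 in UT_LCL_5, against 3141 to 4584 (median 3841). Its co-chaperone DNAJA1 had a log2 fold change of -1.93, HSPH1 of -1.81, HSP90AA1 of -1.0 and the mitochondrial chaperonin HSPD1 of -0.44. HSPA1A was at 45.3, 33.7, 42.3 and 30.9 CPM against 118 to 352 (median 245). HSPA1A and HSPA1B (-2.12) are near-identical copies whose reads may have been split. The 4 libraries of HSPA8 lay below the lowest of the other 8 by a wide margin.

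Only 3 of the 10 genes listed with the metallothioneins passed the filter on low counts, and all 3 were apart and lower. MT2A (ENSG00000125148, chromosome 16 from 56642111 to 56643409) was at 144 CPM in UT_4, 88.6 in UT_5, 147 in UT_LCL_4 and 81.9 in UT_LCL_5, against 426 to 1232 (median 808), a log2 fold change of -2.85. MT1X was at 1.18, 0.512, 1.12 and 0.238 CPM against 4.98 to 23.9 (median 9.97). SLC30A1, which exports zinc, was at 114, 84.8, 131 and 101 CPM against 141 to 241 (median 200.3). Set 5 was below set 4 for all 3 genes. Reads of metallothionein paralogs may have been split between them. Among 23 targets of NRF2, the regulator of antioxidant genes, 9 were apart and lower and 2 apart and higher (median -0.32). TXNRD1, a thioredoxin reductase, was at 924, 1364, 635 and 878 CPM against 1948 to 2951 (median 2425). GCLM (-1.18), SRXN1 (-1.01) and NQO1 (-0.53) were lower, and the higher ones were ME1 (0.46) and SLC7A11, which the amino acid list also holds. HMOX1 (-1.16) overlapped.

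Lists of growth and metabolism had medians below 0, and the share of their genes apart and lower varied. Of 41 genes of ribosome biogenesis, 29 were apart and lower and none apart and higher (median -0.39). NOP56, a nucleolar protein, was at 329, 318, 303 and 297 CPM against 536 to 670 (median 597), and UTP20 had a log2 fold change of -1.33. Cytosolic ribosomal protein genes overlapped in 75 of 76 cases (median -0.07), RPS26 (-0.69) being the one apart. In glycolysis, 10 of 19 genes were apart and lower and 1 apart and higher (median -0.36), with SLC16A3, a lactate exporter, at -1.19 and LDHA at -0.94. Among 29 hypoxia response genes, 14 were apart and lower and 2 apart and higher (median -0.38). PFKFB4 (-2.10), ANGPTL4 (-1.90) and ADM (-1.73) led the lower ones. VEGFA, the angiogenic factor, went against them, at 624, 459, 592 and 422 CPM compared with 103 to 159 (median 115). In cholesterol synthesis and uptake, 6 of 23 genes were apart and lower and 1 apart and higher (median -0.40). In either direction 30.4% of this list was apart, against 35.1% of all genes tested. The median deviations of the list overlapped between libraries, at -0.48 to -0.07 in sets 4 and 5 and -0.19 to 0.54 in the others. The lower genes included SQLE (-0.75) and IDI1 (-0.74), and the higher one was SREBF2 (0.62), the regulator of the pathway. SREBF1 (0.71) was apart and higher. Of its targets, FADS2 (-0.63), ELOVL6 (-0.62) and FASN (-0.48) were apart and lower. SCD overlapped, at 365 to 502 CPM in sets 4 and 5 and 350 to 621 CPM in the others. The fatty acid list as a whole had 4 apart in each direction among 15 (median -0.13).

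The 13 protein genes of the mitochondrial chromosome were higher, 11 of them apart, with a median of 1.23, but the other sets also varied (SD between them 0.48). MT-CYB was at 2346, 2106, 2287 and 2151 CPM against 440 to 1498 (median 641). UT_6 and UT_LCL_3 came closest among the other libraries, at 1498 and 1311 CPM. Of 71 nuclear genes of oxidative phosphorylation, 65 overlapped (median -0.17). The mitochondrial share of counts moved with this group, as given above.

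Genes of quiescence and FOXO factors, which are active when growth factor signaling is low, were apart and higher in 16 of 22 cases and apart and lower in none (median 0.89). TXNIP, which restrains glucose uptake, was at 364, 399, 331 and 260 CPM against 52.3 to 126 (median 75.2). KLHL24 (2.17), CCNG2 (1.81) and GABARAPL1 (1.76) were higher, and FOXO1 (-0.24) overlapped. Among 32 immediate early genes, 16 were apart and higher and 3 apart and lower (median 0.36). ATF3 was at 20.8, 20.6, 20.2 and 16.9 CPM against 2.31 to 3.37 (median 2.85). SPRY2 (1.51), ETV5 (1.48) and DUSP6 (1.17), which are outputs of ERK signaling, were higher and JUN (-1.2) and DUSP2 (-1.29) lower. MYC was at 1578, 1627, 1652 and 1653 CPM against 889 to 1099 (median 962). The p53 targets divided, 8 apart and higher and 4 apart and lower of 23 (median 0.01). BBC3 (PUMA) was at 29.3, 30.4, 32.6 and 30.3 CPM against 1.25 to 2.41 (median 1.63), whereas CDKN1A (p21) was at 4.94, 5.86, 7.06 and 3.99 CPM against 9.38 to 13.9 (median 11.5), and MDM2 (-0.10) overlapped.

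The other lists had medians between -0.18 and 0.36. Their shares of genes apart in either direction ran from 24.1% (interferon-stimulated genes) to 48% (epithelial and mesenchymal genes), against 35.1% of all genes tested. Circadian clock genes had 7 apart and higher and 1 apart and lower of 19 (median 0.31), with ARNTL at 1.52. Nuclear-retained and host gene RNAs had 7 and 1 of 17 (median 0.36), including GAS5 at 1.22, while NEAT1 was at 435, 152, 428 and 164 CPM against 52.6 to 300 (median 110.5), so that set 5 lay inside the range of the others. NF-kappaB genes had 3 apart and higher and 6 apart and lower of 25 (median -0.03), interferon-stimulated genes 3 and 4 of 29 (-0.12), YAP and TEAD targets 2 and 6 of 21 (-0.10), and TGF-beta targets 5 and 5 of 22 (-0.06). Lysosomal genes had 7 and 4 of 36 (0.05), extracellular matrix genes 8 and 7 of 45 (0.05) and epithelial and mesenchymal genes 4 and 8 of 25 (-0.18). ESRP1, an epithelial splicing factor, was at 63.9, 28.1, 55.5 and 27.6 CPM against 0.837 to 5.03 (median 1.47), while its paralog ESRP2 was lower (-0.86).

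The largest differences outside the lists concerned genes of varied function. Higher were AKNA (3.50), a centrosomal protein, TCP11L2 (2.93), SLFN5 (2.77) and GTPBP2 (2.76), a ribosome rescue factor. Lower were ATP1B1 (-3.15), a sodium pump subunit, P2RY2 (-3.12), a nucleotide receptor, NEXN (-2.62), an actin-binding protein, TMEM200C (-2.27) and KITLG (-2.22), the ligand of KIT. ATP1B1 was at 3.15, 3.24, 3.92 and 2.62 CPM against 24.2 to 34.9 (median 27.9). All of these were apart, which the rule for naming them required.

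Sets 4 and 5 also differed from each other. Measured against the mean of the other sets, E2F1 was at -2.73 in set 4 and -1.79 in set 5, ZNF367 at -3.93 and -2.78, ESRP1 at 4.91 and 3.82 and MT2A at -2.44 and -3.21. COL1A2 was at 0.39 in set 4 and 1.27 in set 5. The NF-kappaB list had a median of 0.26 in set 4 and -0.41 in set 5. By contrast CHAC1 (4.99 and 5.03), SESN2 (4.70 and 4.68) and the amino acid list (1.49 in each) hardly differed. Taken separately, untreated and treated libraries gave medians of 1.54 and 1.42 for the amino acid response, -0.97 and -0.92 for DNA replication, 0.81 and 0.85 for mitosis and -1.04 and -0.93 for heat shock genes. The medians lay further apart for cholesterol genes (-0.46 and -0.27) and YAP and TEAD targets (-0.07 and -0.24), and those of NF-kappaB genes had opposite signs (-0.17 and 0.11).

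**Figure D4:**
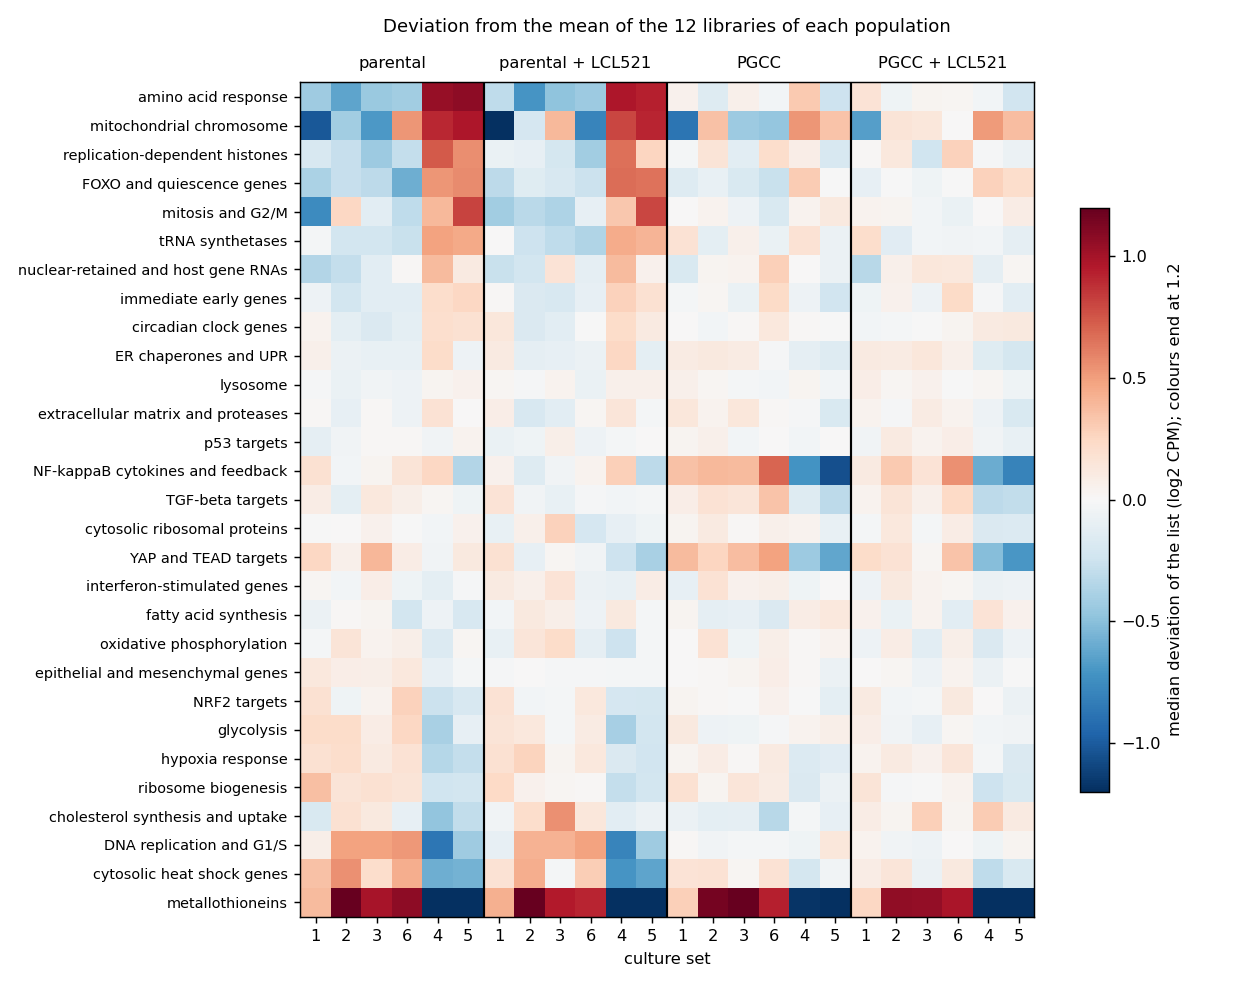
Median deviation of each list (log2 CPM, color scale in the bar) from the mean of the 12 libraries of the same population, for all 24 libraries by culture set and condition. The amino acid response is at 0.94 to 1.07 in the 4 parental libraries of sets 4 and 5 and at -0.71 to -0.31 in the other parental libraries; the metallothioneins are low in sets 4 and 5 of all 4 conditions.

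In the PGCC libraries, which the choice of parental sets did not use, 3159 of 15227 genes (20.7%) were apart between sets 4 and 5 and the others, 1428 higher (9.38%) and 1731 lower (11.4%). Of the 4974 genes apart in parental cells and tested in PGCC, 3826 had the same sign and 1430 were apart the same way. Over the 13983 genes tested in both populations, the log2 fold changes had a Pearson correlation of 0.45. The share with the same sign among all of these genes was not counted. Metallothionein genes were apart and lower in both populations (median -2.58 in PGCC), and 9 of 20 heat shock genes were apart and lower in PGCC (median -0.20). Ribosome biogenesis genes were apart and lower in 19 of 41 cases (median -0.27). Larger counts than in parental cells were found for NF-kappaB genes, 22 of 29 apart and lower (median -1.23), YAP and TEAD targets, 16 of 22 (median -0.83), and endoplasmic reticulum stress genes, 15 of 27 (median -0.24). Single genes also reversed. DNAJB9 (-1.15), HERPUD1 (-0.94) and ATF3 (-1.48), apart and higher in parental sets 4 and 5, were apart and lower in PGCC. FASN (0.39), CDT1 (0.30) and ESRP2 (0.35) went from apart and lower to apart and higher. The amino acid response had 1 gene apart and higher and 3 apart and lower of 35 in PGCC, with a median of 0.04, and DNA replication 6 and 3 of 45, with a median of 0.04. CHAC1 was at 0.28 in PGCC and SESN2 at -0.09. Whether the populations differ was not tested.

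The response to LCL521 was measured within sets and is independent of the choice of sets, so it was tested. Same-numbered UT and UT_LCL libraries deviated together, and the fit with the culture set as a block is therefore printed beside the fit without it. For a difference in response between sets 4 and 5 and the others, the quasi-likelihood test of edgeR (Benjamini-Hochberg adjusted over all genes) called 0 of 14295 genes without the block (0%, 121 at an unadjusted p under 0.05; DESeq2 and limma-voom also called 0) and 3 with the block (0.021%, 927 unadjusted). The 3 genes were DKK1, SHISA3 and CDKN2B. DKK1, a secreted Wnt inhibitor, went from 508 to 271 CPM in set 4 and from 480 to 270 CPM in set 5, log2 differences of -0.90 and -0.83. In the other 4 sets its mean difference was -0.13 ± 0.17 (SD, n = 4). The interaction was -0.74 (standard error 0.10, adjusted p = 0.0317 by edgeR). SHISA3 went from 166 to 120 CPM in set 4 and from 152 to 101 CPM in set 5, against a mean log2 difference of 0.07 ± 0.07 (SD, n = 4) in the others (interaction -0.60, standard error 0.08, edgeR adjusted p = 0.032).

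CDKN2B had an interaction of the same sign, but its change with LCL521 lay in the sets where its level was low. Its log2 difference was 0.60 ± 0.04 (SD, n = 4) in sets 1, 2, 3 and 6, and 0.09 in set 4 and -0.02 in set 5 (interaction -0.57, standard error 0.08, edgeR adjusted p = 0.032 with the block). ITPKB, an inositol phosphate kinase, did not pass (0.71, adjusted p = 0.06 by edgeR with the block), with differences of 0.90 and 0.79 in sets 4 and 5 and 0.13 ± 0.21 (SD, n = 4) in the others. Without set 1, 2, 4 or 5 none of the 3 genes passed, and without set 3 and without set 6 the blocked test called 6 and 10 genes. Only 2 sets carry one side of this comparison.

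For LCL521 in all parental sets with the group of sets as covariate, edgeR called 0 genes (0%, 368 unadjusted, smallest adjusted p = 0.225; DESeq2 called 10), and 0 with 79 unadjusted when the group of sets was left out of the model. With the culture set as a block, edgeR called 111 genes (0.776%), of which 65 rose and 46 fell. INSIG1, which retains the sterol sensor complex in the endoplasmic reticulum, rose by 0.75 (standard error 0.08, edgeR adjusted p = 5.56e-04), from 30.7 to 53.2 CPM in set 4 and from 36.6 to 79.3 CPM in set 5, and in the other sets by 0.34 to 0.90. NPC1, the lysosomal cholesterol exporter, rose by 0.44 (adjusted p = 0.00586 by edgeR), from 171 to 269 CPM in set 4, 171 to 245 CPM in set 5 and by 0.36 ± 0.23 (SD, n = 4) on the log2 scale in the others. STX3, CREBRF, FBXO32, RRAGC, HMGCS1, SCD, STARD4, EDEM1 and FAM102A rose and TUBB4B and BCL2L1 fell with the block. None of these genes passed the test for a different response in sets 4 and 5, where INSIG1 had an adjusted p of 0.762 and NPC1 of 0.794 by edgeR with the block, and such values do not show that the responses were equal. ASAH1, the target of the drug, changed by 0.09 (edgeR adjusted p = 0.492 with the block). Without set 5 the blocked test called 39 genes and without set 4 it called 57.

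**Figure D5:**
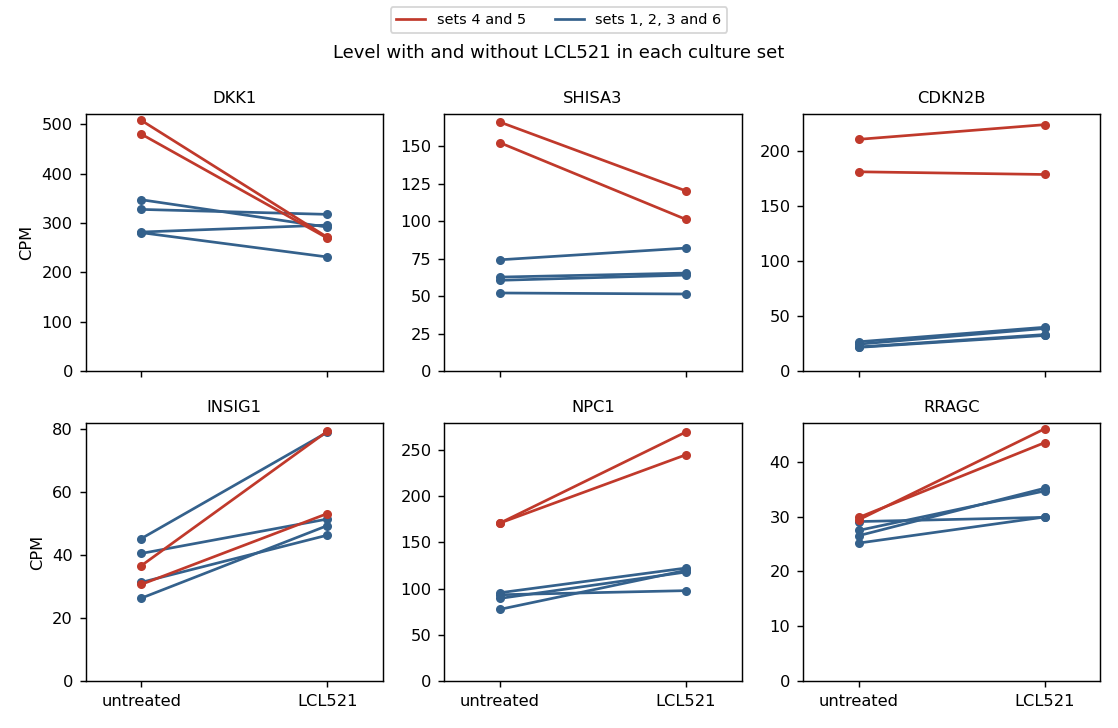
Level (CPM) of 6 genes without and with LCL521, 1 line per culture set, sets 4 and 5 in red. DKK1 and SHISA3 go down in both red sets (508 to 271 and 166 to 120 CPM in set 4), CDKN2B goes up in the 4 blue sets, and INSIG1 goes up in all 6.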

How the data were processed

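RNA-seq counts of 12 parental PPC1 libraries (6 UT, 6 UT_LCL) were analysed, with the 12 PGCC libraries set beside them. The authors deposited whole-number read counts for 48162 genes, not normalized. Their supplementary methods name paired-end alignment with STAR 2.5 and counting with HTSeq 0.6.1, and the submitters' processing notes name hg19. The annotation release and strand setting are not given in the sources used here, so overlapping, antisense and paralogous genes are uncertain. Totals per parental library were 14835246 to 19906601 counts. Libraries with the same number were taken as 1 set: same-numbered UT and UT_LCL libraries correlated at 0.483 to 0.833 (deviations from condition means over genes) and at 0.183 to 0.588 after removal of the group of sets, above the threshold of 0.1 in all 6 pairs, and the study describes 6 sets of RNA isolations. The labels do not say whether sets came from separate cultures, so p-values measure the spread between these samples.

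Genes entered if they passed filterByExpr of edgeR (minimum count 10, total 15), libraries were scaled by TMM, and log2 CPM carries a prior count of 2. The filter used the group of sets and LCL521 as groups, so a gene could enter through libraries of 1 group of sets alone. Fold changes came from edgeR 4.0.16 (R 4.3.3) with the group of sets and LCL521 as terms. LCL521 and its interaction were tested with edgeR's quasi-likelihood test, Benjamini-Hochberg adjusted over all genes at 0.05. Alternatives used DESeq2 1.42.0, limma 3.58.1, other scalings and filters, a gene length correction, the replicate block and sets left out in turn. The procedure was run on simulated data with planted differences larger than the interactions called here and no planted LCL521 effect shared by all sets. That run does not show how effects of the reported size are recovered. The members, gene lists and tests were chosen with earlier results of these data known. Named genes were the 12 largest rises and falls among genes apart with a mean of at least 16 CPM, the 3 largest changes of each list in the direction of its median and the 1 largest against it (mean at least 4 CPM), INSIG1, RRAGC, STX3, ASAH1, the markers, and for the tests the called genes (at most 10) or the 3 smallest p-values. Further list members were named after their values were seen, for their known roles. Values of some genes are not reported here. Promoters came from RefSeq (GRCh38.p14), and no coordinates were converted.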

Additional observations from a re-analysis of the deposited data

Results flagged for a closer look

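Within the 6 libraries of a condition, a Dixon test at the 95% level marked 7 of 356 groups (178 values in each of the UT and UT_LCL conditions). The usual chance rate of about 1 in 20 does not apply here. Many of the genes were named for being apart, and sets 4 and 5 shifted together widen the range and hide each other. The count of 7 therefore does not show whether outliers were few or many. TGF-beta targets had a median deviation of 0.16 in UT_LCL replicate 1, with the others at -0.08 to -0.02. RPS15A was at 63.7 CPM in UT replicate 2, with the others at 31.4 to 41.2. RPS29 was at 658 CPM in UT replicate 2, with the others at 383 to 468, and at 653 CPM in UT_LCL replicate 3, with the others at 397 to 471. COL1A2 was highest in set 5 under both conditions, at 124 CPM in UT (others 40.6 to 63.2) and 105 CPM in UT_LCL (others 42.0 to 61.2), so for this gene set 5 stood apart from set 4 as well. HMGCS1 was at 144 CPM in UT_LCL replicate 3, with the others at 80.3 to 95.5.

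The response to LCL521 differed between sets 4 and 5 and the others, by edgeR's interaction test with the culture set as a block, for DKK1 (-0.74, adjusted p = 0.0317), CDKN2B (-0.57, adjusted p = 0.032) and SHISA3 (-0.60, adjusted p = 0.032). The direction was the same in both of sets 4 and 5 for DKK1 and SHISA3. Without the block edgeR called 0 genes (121 at an unadjusted p under 0.05; DESeq2 and limma-voom also 0), and with the block it called 0 when set 1, 2, 4 or 5 was left out.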

How the results depend on the processing

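The number of genes apart stayed between 4675 and 7409 under every setting run (5021 as reported, 5310 to 6785 with 1 set left out, 2691 to 3346 higher and 2619 to 3454 lower), and no named gene that was apart, and no list whose library medians were apart, reversed its direction. Among the rest, medians near 0 changed sign under at least 1 setting for NF-kappaB genes (0.26 in set 4 alone), endoplasmic reticulum stress genes (-0.04 in set 5 alone), interferon-stimulated genes (0.03 in set 5 alone), p53 targets (-0.05 in treated libraries alone), ribosomal protein genes and extracellular matrix genes, as did the overlapping genes HIST1H2BK and WDR12. Of the alternatives for list medians, 396 stayed within 1 SD of the other sets and 68 moved further, and for named genes 1901 and 130. For the interaction, the replicate block gave 3 calls, the block with a gene length correction 8, DESeq2 with the block 6 and the block with each set left out 0 to 10. For LCL521, DESeq2 gave 10 calls, no filter beyond 1 count 37, the replicate block 111, the block with the length correction 238, DESeq2 with the block 158 and the block with each set left out 39 to 110 (84 without set 1, 108 without set 2, 110 without set 3, 57 without set 4, 39 without set 5 and 76 without set 6). The other settings gave 0 for both. The block with sets left out and DESeq2 with the block were added after the data were seen. With set 4 or 5 left out, the remaining set is assumed to vary like the others. The cause of these shifts was not tested. With 2 sets against 4, a set's own history cannot be told apart from a shared state, and depth limits genes under about 3 counts per library.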

Other observations

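RNA classes outside the gene lists also differed between the groups of sets. The median log2 fold change of sets 4 and 5 over the others was 0.25 for 424 lincRNA genes and 0.22 for 534 antisense genes, against -0.02 for 12178 protein-coding genes. Together lincRNA and antisense genes held 0.583% to 0.667% of counts in sets 4 and 5 and 0.441% to 0.582% in the other parental libraries. Strand was not known to be used in counting, so antisense values may include reads of the overlapping genes. Across genes, the Spearman correlation of the fold change with gene length was 0.01.

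Among the markers of other tissues, TP63, a basal epithelial transcription factor, was at 7.87 to 15.2 CPM in sets 4 and 5 and 0.542 to 2.35 CPM in the others, and KRT15 at 57.4 to 80.9 against 22 to 46.6 CPM. KDR, a receptor of VEGFA, was at 2.75 to 3.41 against 0.682 to 1.49 CPM, and PTPRC at 1.85 to 2.67 against 0.341 to 1.15 CPM. PDGFRA was at 0.0562 to 0.455 against 0.473 to 1.48 CPM.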
